A study of Mus musculus with 74 samples.

Results

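The 8 transcription factor genes described here that set and keep hepatocyte identity were followed through one liver RNA-seq table and 11 liver ChIP-seq peak tables of mice that lack a corepressor subunit or the nuclear receptor PPARα. The genes were Prox1, Foxa1, Foxa2, Foxa3, Onecut1, Onecut2, Cebpa and Cebpb. They were picked by symbol, which gave 8 of 14583 genes in the RNA-seq table, and by the gene name that the peak annotation gives to the nearest start site, which gave 1080 of 743949 peak entries. The rule itself uses no measured value, but the 8 genes were chosen with earlier results of these data known. All mice were C57BL/6 by label, 8 to 12 weeks old and on normal chow, and the tissue was whole liver. The H3K27ac and H3K4me3 libraries of the Gps2 line are also named as fed in the deposited counts. Gps2 LKO mice carried floxed Gps2 alleles and an Alb-Cre transgene, which the albumin promoter drives in hepatocytes, and their WT controls were flox/flox littermates without Cre. Pparα KO mice lacked PPARα in the whole body. Ncor LKO and Smrt LKO mice lacked NCOR or SMRT in the liver, and each line had WT controls of its own. The RNA-seq had 4 WT and 4 Gps2 LKO livers. ChIP-seq for H3K27ac and H3K4me3 in the Gps2 line and for PPARα in the Pparα line had 2 libraries a group, GPS2 and RNA polymerase II (Pol II) in the Gps2 line had 1, and every other ChIP-seq comparison had 3 against 3. Where nothing says that libraries came from separate animals, p-values measure the spread between these samples only. RNA-seq libraries held 13.2 to 20.1 M counts and replicated ChIP-seq libraries 7.9 to 46.1 M mapped tags.

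FOXA1, FOXA2 and FOXA3 are forkhead pioneer factors that open liver chromatin, and C/EBPα and C/EBPβ are basic leucine zipper activators of metabolic and acute-phase genes. ONECUT1 (HNF6) and ONECUT2 are cut-homeodomain factors of liver and bile duct development, and PROX1 is a homeodomain factor that restrains other nuclear regulators in hepatocytes and also marks lymphatic endothelium. GPS2, NCOR and SMRT are subunits of one corepressor complex, which carries the histone deacetylase HDAC3 and is recruited by nuclear receptors. PPARα is the receptor that turns on fatty acid oxidation in the fasted liver and binds DNA as a heterodimer with RXR at direct repeats spaced by a single base (DR1).

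The peaks assigned to the 8 genes lay mostly far from their start sites. In the GPS2, NCOR and PPARα tables, between 1.77% and 13.0% of them had centres within 1000 bp of a start site, against 18.2% to 29.3% of all peaks. Foxa2 held 13 to 52 peaks and Prox1 11 to 40 in those tables, whereas Foxa3 held 1 to 5 and Cebpb 0 to 3. The sequences below are 200-base windows on the centres of 6 PPARα peaks, read from the reference mm9 (NCBIM37) on the plus strand, 5′ to 3′. The first 4 are shown because they had the smallest p of their gene for PPARα tags lost in Pparα KO liver. The last 2 are shown because PPARα tags rose there in Gps2 LKO liver, near a called H3K27ac peak. For Foxa2 that H3K27ac peak surrounds the window and was called in Ncor LKO liver, not in Gps2 LKO liver. For Foxa1 it lies beside the window and was called in Gps2 LKO liver. The peaks of Onecut2 are described by values only. Capitals mark matches to 4 motifs searched on both strands: the DR1, in which AGGTCA is repeated after 1 base of any kind, with up to 2 mismatches, the FOXA motif TGTTTAC, the C/EBP motif TTGCNNAA and the ONECUT motif ATTGAT.
Cebpb, chr2:167513253-167513452: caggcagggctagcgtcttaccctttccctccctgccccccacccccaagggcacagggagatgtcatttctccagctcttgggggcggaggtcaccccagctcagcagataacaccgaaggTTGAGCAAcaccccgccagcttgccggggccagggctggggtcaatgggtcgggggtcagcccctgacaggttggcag
Prox1, chr1:191931086-191931285: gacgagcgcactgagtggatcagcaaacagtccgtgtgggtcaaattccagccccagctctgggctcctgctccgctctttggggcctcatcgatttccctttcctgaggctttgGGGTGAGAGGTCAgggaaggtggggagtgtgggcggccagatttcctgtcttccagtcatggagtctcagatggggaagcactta
Foxa2, chr2:147768441-147768640: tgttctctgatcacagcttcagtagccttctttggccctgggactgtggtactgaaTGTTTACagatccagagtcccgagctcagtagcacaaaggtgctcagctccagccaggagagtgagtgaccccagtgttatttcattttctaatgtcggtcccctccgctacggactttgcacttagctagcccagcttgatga
Cebpa, chr7:35875679-35875878: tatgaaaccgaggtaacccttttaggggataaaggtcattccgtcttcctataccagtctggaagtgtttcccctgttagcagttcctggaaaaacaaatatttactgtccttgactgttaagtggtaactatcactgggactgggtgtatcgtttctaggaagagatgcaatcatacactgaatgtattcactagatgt
Foxa2, chr2:147725043-147725242: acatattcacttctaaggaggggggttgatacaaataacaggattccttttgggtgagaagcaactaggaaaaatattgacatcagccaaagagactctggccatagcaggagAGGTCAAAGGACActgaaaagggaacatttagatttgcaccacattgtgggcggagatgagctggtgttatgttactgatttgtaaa
Foxa1, chr12:58526023-58526222: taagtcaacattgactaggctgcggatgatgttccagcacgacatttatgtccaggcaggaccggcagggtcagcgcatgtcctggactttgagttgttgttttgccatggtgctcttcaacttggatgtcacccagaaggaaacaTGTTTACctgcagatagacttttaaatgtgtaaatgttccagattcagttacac
The Cebpb window, at -1062 bp from the start site, held a C/EBP match and no DR1 match. The Prox1 window held a DR1 match with 2 mismatches, and the Foxa2 window at chr2:147725043-147725242 held one with 1 mismatch. The other Foxa2 window and the Foxa1 window each held a FOXA match, and the Cebpa window held none of the 4. Over all PPARα peaks of the Pparα table, 14.0% of windows held the DR1, against 13.8% of the 87 windows of the 8 genes. The FOXA motif was in 16.1% of their windows and 6.34% of all windows, the C/EBP motif in 29.9% and 18.2%, and the ONECUT motif in 16.1% and 14.2%. GPS2 peaks of the Gps2 table gave 12.2% and 10.5% for the DR1, 15.9% and 6.03% for FOXA, 24.4% and 16.0% for C/EBP, and 14.6% and 10.8% for ONECUT. A match is a string of letters in a window, and the shares are given as a description.

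RNA-seq asked how the level of each factor differed in liver without hepatocyte GPS2. Foxa2 and Cebpa were higher in Gps2 LKO liver, Prox1, Onecut2 and Foxa1 were lower, and Foxa3, Onecut1 and Cebpb did not pass the test (edgeR's quasi-likelihood test, Benjamini-Hochberg adjusted over 12220 genes). Across all genes tested 23.4% were called higher and 21.4% lower, so 2 higher and 3 lower of 8 is close to the background of this comparison. The 5 called genes also had groups that did not overlap, which 39.1% of all genes tested had. With the length trend described further on removed, 46.0% of all genes were called. Levels are CPM, read counts scaled to library size, here by the trimmed mean of M values (TMM).

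Foxa2 stood at 17.9, 18.5, 17.3 and 18.4 CPM in the WT livers and at 32.9, 27.2, 33.4 and 27.8 in the LKO livers. Every LKO liver was above every WT liver. The log2 fold change was 0.75 ± 0.088 (SE, n = 4 and 4, edgeR adjusted p = 1.9e-05), and leaving out any 1 library gave 0.70 to 0.79. Cebpa stood at 260, 257, 273 and 233 CPM in WT and at 360, 329, 417 and 370 in LKO. Its groups were also apart, by 0.53 ± 0.075 (SE, edgeR adjusted p = 0.00011). For Foxa1 the direction was opposite, with 28.1, 26.98, 26.3 and 24.4 CPM in WT against 23.8, 23.6, 16.3 and 20.3 in LKO. The highest LKO liver was just below the lowest WT liver, and the change was -0.33 ± 0.11 (SE, edgeR adjusted p = 0.025). That call was lost when any of 5 libraries was left out (WT 1, 2 or 3, LKO 3 or 4), with adjusted p from 0.055 to 0.072.

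Prox1 fell the most, with 81.0, 91.2, 90.9 and 74.1 CPM in WT and 25.9, 72.7, 44.9 and 28.7 in LKO. The log2 fold change was -0.95 ± 0.24 (SE, edgeR adjusted p = 0.0059). LKO replicate 2 lay just under the lowest WT liver while the other 3 were far below, and without it the change was -1.35. Onecut2 stood at 135, 135, 139 and 137 CPM in WT and at 93.1, 124, 88.1 and 94.1 in LKO, again with LKO replicate 2 nearest to WT, a change of -0.45 ± 0.092 (SE, edgeR adjusted p = 0.0017). Onecut1 had 16.4, 16.9, 17.4 and 14.0 CPM in WT and 10.0, 29.8, 17.0 and 10.4 in LKO. LKO replicate 2 was the highest of all 8 livers and the groups overlapped, with a change of 0.09 ± 0.26 (SE, edgeR adjusted p = 0.79). Without that library the sign turned and the change was -0.37 (edgeR adjusted p = 0.031).

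Foxa3 was nearly level, at 80.1, 76.0, 76.6 and 75.9 CPM in WT and 76.9, 68.5, 77.6 and 74.8 in LKO, a change of -0.05 ± 0.063 (SE, edgeR adjusted p = 0.53). Cebpb had 169, 159, 161 and 152 CPM in WT and 151, 109, 180 and 153 in LKO. Its groups overlapped, with LKO replicate 2 the lowest, and the change was -0.11 ± 0.11 (SE, edgeR adjusted p = 0.44).

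**Figure D1:**
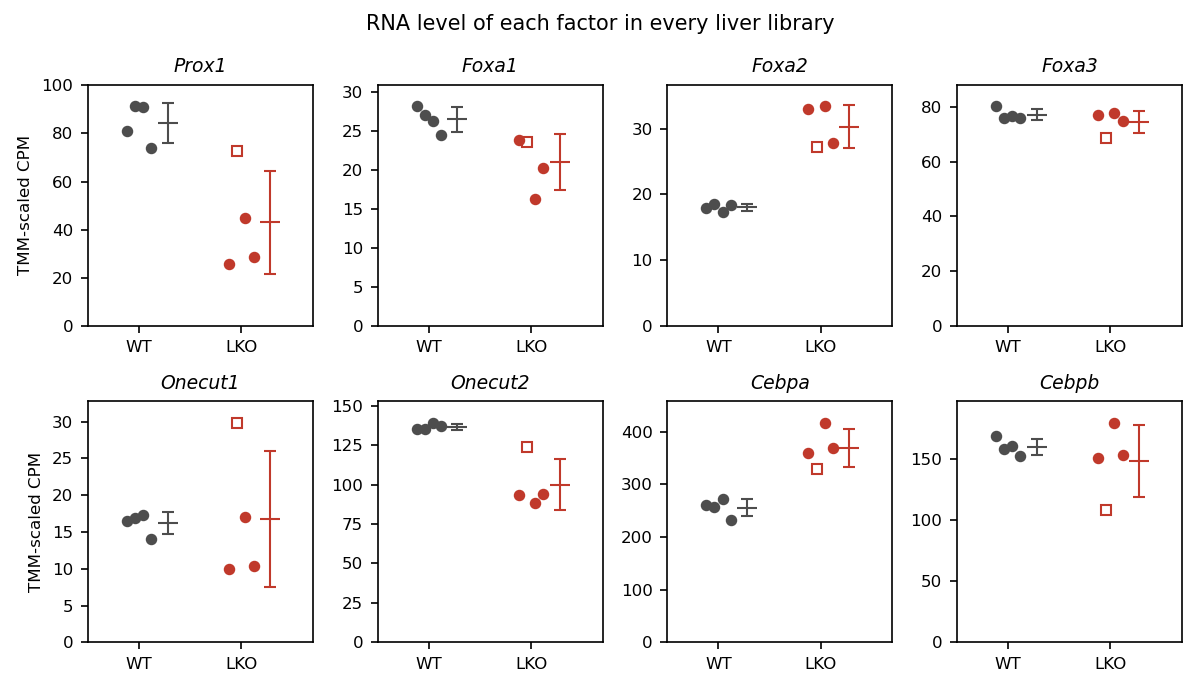
TMM-scaled CPM (y axis from 0) of each factor in the 4 WT and 4 Gps2 LKO livers, 1 point a library, with the mean and SD beside the points. The open square is LKO replicate 2, which was nearest to WT for Prox1 and Onecut2 and highest for Onecut1. Foxa2 and Cebpa were higher in all 4 LKO livers.

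LKO replicate 2 stood apart from the other LKO livers across genes. The log2 fold change of all genes ran with exon length (Spearman rho = -0.40 across genes, which are not independent replicates), and the deviation of single libraries did so at -0.37 to -0.51 in LKO replicates 1, 3 and 4, at -0.04 in LKO replicate 2 and at -0.16 to 0.15 in WT. With the length trend removed, Onecut2, whose annotated exons sum to 13391 bases, changed by -0.09 (edgeR adjusted p = 0.26) and its call was lost. Foxa3 then changed by -0.23 (edgeR adjusted p = 0.0011) and Cebpb by -0.36 (edgeR adjusted p = 0.0023), both called lower, while Prox1 (-0.94), Foxa1 (-0.36), Foxa2 (0.63) and Cebpa (0.44) kept their calls.

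Per kilobase of exon, Cebpb and Cebpa were the most abundant in WT liver, at 105 ± 4.42 and 97.0 ± 6.30 CPM per kb (SD, n = 4), with overlapping ranges. Foxa3 followed at 37.8 ± 0.98, Prox1 at 20.4 ± 2.01, Onecut2 at 10.2 ± 0.14, Onecut1 at 8.87 ± 0.82, Foxa1 at 8.29 ± 0.49 and Foxa2 at 7.61 ± 0.24 CPM per kb. The ranges of Onecut1 and Foxa1, and those of Foxa1 and Foxa2, overlapped. In LKO liver Cebpa came first at 140 ± 13.8 CPM per kb, and Foxa2, the lowest in WT, stood at 12.8 ± 1.39 CPM per kb. Prox1 stood at 10.4 ± 5.19 CPM per kb in LKO, over a range of 6.26 to 17.6 that held the whole Foxa2 range of 11.5 to 14.1. Foxa3 was thus the most abundant FOXA transcript in both groups.

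As a description over the 8 livers, Foxa2 and Cebpa moved together (Pearson r = 0.94 of log2 CPM), as did Foxa3 and Cebpb (0.933) and Prox1 and Onecut2 (0.91), whereas Onecut2 ran against Cebpa (-0.933) and Foxa2 (-0.929). These values share libraries, depth and the length trend, and the groups themselves make up part of them. The genes most like Prox1 were Spen (1.00) and Masp1 (0.998), and those most like Onecut1 were Chdh (0.986) and Cpt1a (0.986). Foxa2 was most like Klhdc3 (0.995) and Dpys (0.994), Cebpa like Pdgfa (0.995) and Aspdh (0.993), and Onecut2 like Arcn1 (0.997) and Reep3 (0.997). Foxa1 was most like Pxmp4 (0.962) and Qrich1 (0.956), Foxa3 like Stk16 (0.978) and Acot8 (0.974), and Cebpb like 2810013P06Rik (0.975) and Plin5 (0.953).

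Other factors of the hepatocyte network moved in both directions, with 5 higher and 8 lower of 22, against 23.4% and 21.4% of all genes. Hnf4a, the nuclear receptor at the centre of that network, fell from 736 to 774 CPM in WT to 532 to 642 in LKO (log2 fold change -0.41, edgeR adjusted p = 0.00028). Tcf7l2 (-0.58), Zbtb20 (-0.81) and Nr5a2 (-0.45) also fell, and Nr1i3, the receptor CAR, rose by 0.47. Among 15 other genes of the forkhead, cut, C/EBP and PROX families 2 rose and 4 fell, and Onecut3 was not in the table. Cux2, a cut-homeodomain relative of the ONECUT genes that is known for its higher level in female than in male mouse liver, rose from 0.119 to 0.637 CPM in WT to 11.4 to 19.2 in LKO (5.49 ± 0.27, SE, edgeR adjusted p = 3.5e-09). Its relative Cux1 fell (-0.55), as did the forkhead gene Foxn3 (-1.35). Cux1 lost its call with the length trend removed, at -0.15 (edgeR adjusted p = 0.15).

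Textbook targets of the 8 factors went both ways, more often up, with 14 higher and 7 lower of 26. Over all genes 23.4% were called higher and 21.4% lower. This list, like the other gene lists and the marker lists here, was chosen with earlier results of these data known. Its counts are therefore a description. With the length trend removed 12 targets were higher and 9 lower, and their median log2 fold change was 0.05 instead of 0.21. Albumin (Alb) rose by 0.63, transthyretin (Ttr) by 0.86, transferrin (Trf) by 0.87 and Cyp2c29 by 1.24. The C/EBP-driven acute-phase gene Saa1 fell by 1.23, Apob, the core protein of very low-density lipoprotein, by 0.82, and Cyp7a1, the rate-limiting enzyme of bile acid synthesis, by 0.46 on the log2 scale. The 8 factors had a median log2 fold change of -0.08, against 0.03 over all genes.

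The targeted gene Gps2 was at 15.1 to 16.7 CPM in WT and 9.17 to 12.9 in LKO (-0.53, edgeR adjusted p = 0.0021). In bulk liver, fewer cells of a type and less RNA per cell cannot be told apart. FOXA and ONECUT genes are also used by bile duct cells, Cebpb by macrophages and Prox1 by lymphatic endothelium. Bile duct markers summed to 66.0 to 70.4 CPM in WT and 93.1 to 113 in LKO, with 3 of 6 called higher (Krt19, Epcam and Spp1) and Cftr under the filter. Macrophage markers summed to 152 to 156 CPM in WT and 206 to 242 in LKO (8 of 8 higher), and stellate cell markers to 198 to 209 and 367 to 382 (8 of 8 higher). Endothelial markers summed to 124 to 130 and 135 to 146 (2 of 6 higher), and of the lymphatic markers Pdpn was under the filter and Ccl21a was not in the table. Of 12 hepatocyte markers 7 were higher and 1 lower, or 4 and 2 with the length trend removed, and their sum was 134213 to 138257 CPM in WT and 175285 to 203973 in LKO. Over all genes tested 23.4% were called higher and 21.4% lower. The part of these markers in the changes of the 8 genes was not tested.

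GPS2 ChIP-seq asked where the 8 genes held the targeted protein. In WT liver 82 GPS2 peaks were assigned to them, and every one was more than 2-fold lower in the Gps2 LKO library, as were 99.6% of all 49018 peaks. With 1 library a group there is no replicate check, and intervals cover counting error only. The 82 peaks held so few LKO tags that they appear to have been listed through the WT library. A lower LKO value was therefore partly fixed by how the peaks were picked, and the counts, ratios and folds here are a description. Over the 82 peaks 2468 tags fell to 80, a ratio per mapped tag of 0.034 (95% exact interval 0.0268 to 0.0424). The Cebpb upstream peak went from 94 tags to 0, which is at least 29.9-fold lower, counting a zero as 3 tags. The Cebpa start-site peak went from 66 tags to 0 (at least 21.0-fold lower), that of Foxa3 from 38 to 0 (at least 12.1-fold), that of Onecut1 from 32 to 0 (at least 10.2-fold), and that of Foxa2 from 64 to 1. Summed over peaks, Foxa2 held the most GPS2 in WT, at 455 tags per 10 M mapped tags, then Prox1 at 302 and Cebpa at 288, and Foxa3 the least at 45.8. Scaled to the tags inside peaks the ratio was 0.774, since the share of tags in peaks was itself 7.07% in WT and 0.31% in LKO.

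Pol II over the same genes was almost level in the Gps2 line. Its 42 peaks held 3299 tags in WT and 3465 in LKO, a ratio of 1.03 (95% exact interval 0.981 to 1.08). Over the start-site peaks, the ratio ranged from 0.96 at Cebpb, with 337 and 330 tags, to 1.14 at Onecut1, with 220 and 255. Prox1 and Foxa2, whose RNA changed in opposite directions, had start-site ratios of 0.975 and 1.07. By gene, summed Pol II was highest relative to WT at Onecut1 (1.29) and lowest at Prox1 (0.908). More than 2-fold higher were 4 of the 42 peaks, against 7.72% of all Pol II peaks, and 0 were more than 2-fold lower, against 5.94%. The 4 were chosen for naming after their values were seen: a peak 5029 bp past the Onecut1 start held 52 tags in WT and 107 in LKO, and the other 3 held 6 and 18 tags at Onecut2, 4 and 10 at Foxa1, and 1 and 9 at Cebpa.

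**Figure D2:**
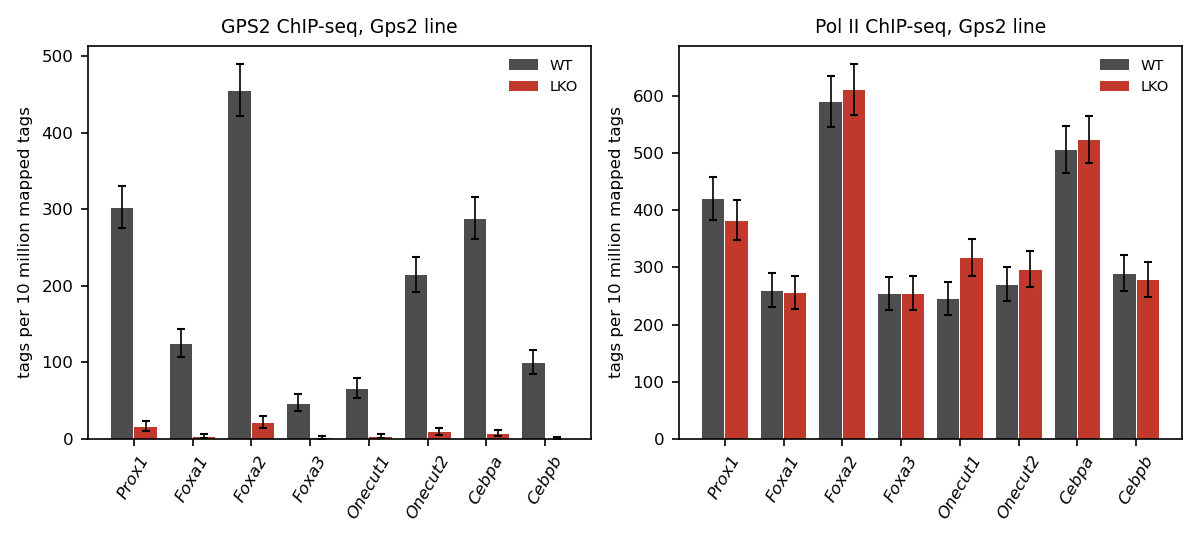
GPS2 and Pol II tags per 10 M mapped tags (y axis from 0), summed over the peaks of each factor in 1 WT and 1 Gps2 LKO library, with 95% exact Poisson intervals. GPS2 tags were near 0 in LKO at all 8 genes, whereas the Pol II bars of WT and LKO stood side by side with ratios of 0.908 to 1.29.

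H3K27ac, a mark of active enhancers and promoters, asked whether chromatin activity at these genes changed with GPS2. At 52 tested peaks 1 was called higher and 0 lower, against 1.21% higher and 0.212% lower of all 47108 peaks. That peak, chr12:58527957-58530174, lay 118043 bp from the Foxa1 start in an intron of a neighbouring transcript. It held 24.8 and 24.2 tags per 10 M in WT and 47.4 and 49.6 in LKO, so both LKO libraries were well above both WT libraries. The log2 fold change was 0.99 ± 0.17 (SE, n = 2 and 2, edgeR adjusted p = 0.044). The call was lost with TMM scaling (edgeR adjusted p = 0.064), with DESeq2 (adjusted p = 0.071) and without either WT library (edgeR adjusted p = 0.31 and 0.33). Without LKO replicate 1 the count was instead 1 higher and 14 lower of the 52 peaks, and without LKO replicate 2 it was 4 higher and 0 lower. The share of all peaks is not given beside these left-out counts, so they do not set the peaks of these genes apart. Foxa1 RNA itself was lower in LKO.

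Broad H3K27ac domains over the start sites were unequal in total tags and in length but similar between groups. The domain with the most tags was at Cebpa, 22109 bp long, with 3242 and 3150 tags per 10 M in WT and 3436 and 3539 in LKO (0.13 ± 0.080, SE, edgeR adjusted p = 0.55). At Foxa2 the domain was longer, at 36984 bp, and held 2375 and 2221 in WT and 2774 and 2488 in LKO, a difference of 0.20 ± 0.090 (SE, edgeR adjusted p = 0.37). At Prox1, whose RNA fell, it held 2040 and 1790 in WT and 2038 and 2173 in LKO. The Onecut1 domain held 2154 and 1930 in WT, 2307 in LKO replicate 1 and 956 in LKO replicate 2, so the 2 LKO libraries lay on either side of WT. Without LKO replicate 1 the Onecut1 sum was called lower (-1.05, edgeR adjusted p = 1.1e-05). With all libraries, summed over peaks, the 6 genes with tested peaks changed by -0.32 to 0.12 on the log2 scale, with edgeR adjusted p of 0.70 to 0.82 and 0 called, against 1.84% of all genes with peaks. The domains over the Foxa3 and Cebpb starts carry the names of neighbouring genes, Irf2bp1 and A530013C23Rik, and changed by -0.01 and 0.07.

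H3K4me3, a mark of active promoters, gave 0 called of 16 peaks, against 0.916% of all 22814 (edgeR, 1 of the 16 at an unadjusted p under 0.05, against 8.05% of all, and 0 called with DESeq2). Sums differed by -0.23 to 0.01 and 0 were called, against 1.08% of all genes. Onecut1 was again the lowest, with 2310 and 2150 tags per 10 M in WT and 2206 and 1611 in LKO, and its sum was called lower without LKO replicate 1 (-0.47, edgeR adjusted p = 0.045).

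In the Ncor and Smrt lines the same 71 H3K27ac peaks of the 8 genes were measured. In Ncor LKO liver 2 were called higher and 0 lower, against 2.32% and 0.801% of all 68817 peaks, and both were assigned to Foxa2, at 140068 and 145249 bp from its start. The peak chr2:147729946-147732319 held 62.2, 55.9 and 52.3 tags per 10 M in WT and 79.6, 90.5 and 89.8 in LKO (0.61 ± 0.14, SE, n = 3 and 3, edgeR adjusted p = 0.042). The peak chr2:147724528-147727375 held 40.3, 36.7 and 32.2 in WT and 50.9, 62.2 and 72.2 in LKO (0.77 ± 0.17, SE, edgeR adjusted p = 0.043). Neither peak had overlapping groups, and each call was lost when any WT library or LKO replicate 2 or 3 was left out. The Foxa2 start-site domain in the same livers held 1896, 1822 and 1647 in WT and 1922, 1720 and 1608 in LKO.

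In Smrt LKO liver 0 of the 71 peaks were called, as were 0.0% of all 68800 peaks with edgeR, with 5 of the 71 at an unadjusted p under 0.05, against 5.93% of all, and 0 of the 71 called with DESeq2. Sums over peaks changed by -0.45 to 0.21 in Ncor LKO and by -0.16 to 0.04 in Smrt LKO, with 0 genes called in either, against 3.0% and 0.0% of all genes. Onecut1 was lowest in Ncor LKO, at 1676, 1397 and 1034 tags per 10 M in WT and 943, 1300 and 773 in LKO. Its groups overlapped (edgeR adjusted p = 0.33). A test of the Ncor change minus the Smrt change called 0 of 71 peaks and 0 of 6 genes, against 0.426% of all peaks and 0.627% of all genes. At Onecut1 that difference was -0.40 ± 0.28 (SE, edgeR adjusted p = 0.65).

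**Figure D3:**
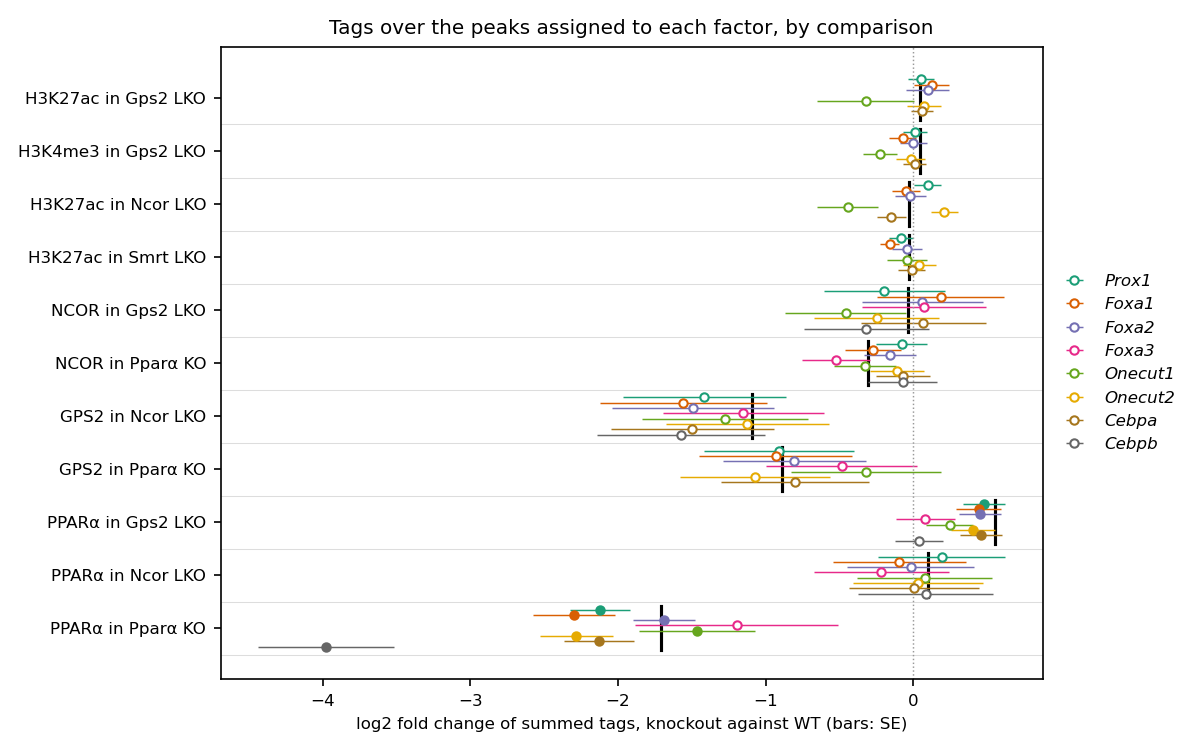
Log2 fold change, knockout against WT, of tags summed over the peaks of each factor in the 11 replicated comparisons, with SE bars. Filled points passed an adjusted p of 0.05 and the black bar is the median of all genes with peaks. Filled points stand in the PPARα comparisons in Gps2 LKO and Pparα KO, and in no other of the 11, and in the first the 8 factors had a median of 0.42 against 0.56 for all genes.

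NCOR occupancy at the 8 genes was measured in Gps2 LKO and in Pparα KO liver. In Gps2 LKO 0 of 113 NCOR peaks were called, against 0.0173% of all 80813 peaks (edgeR, 8 of the 113 at an unadjusted p under 0.05, against 2.79% of all, and 0 called with DESeq2). Sums differed by -0.46 to 0.19 with 0 called, against 0.0295% of all genes, and libraries of one group differed by more than the groups did: Cebpa held 320, 345 and 178 tags per 10 M in WT and 272, 445 and 168 in LKO. In Pparα KO 0 of 176 peaks were called, against 2.64% of all 115042 (edgeR, 7 of the 176 at an unadjusted p under 0.05, against 15.5% of all). Of the sums 0 were called, against 6.02% of all genes, and with TMM scaling Prox1 turned to 0.23 (edgeR adjusted p = 0.023). All NCOR peaks there had a median of -0.32 and those of the 8 genes -0.22. The strongest NCOR peak near a start site was the one upstream of Cebpb, at 97.5, 93.7 and 94.4 in WT and 103, 96.3 and 73.3 in KO, with overlapping groups. The Foxa2 start-site peak held 72.3, 79.1 and 80.9 in WT and 58.0, 68.7 and 45.5 in KO. Its groups were apart but the change of -0.43 did not pass the test (edgeR adjusted p = 0.33).

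GPS2 occupancy in Ncor LKO liver had lower means than in WT at all 8 genes, in values that missed the threshold. Summed over peaks, Cebpb went from 84.0, 148 and 33.8 tags per 10 M in WT to 26.1, 42.5 and 20.3 in LKO. Foxa2 went from 609, 590 and 190 to 168, 191 and 134, and Cebpa from 375, 438 and 147 to 130, 132 and 77.9. Prox1 went from 434, 417 and 154 to 128, 133 and 116. WT replicate 3 was far below the other WT libraries at each of these, and close to the LKO libraries. The 8 sums changed by -1.57 to -1.12, against a median of -1.09 over all genes with peaks, with edgeR adjusted p of 0.062 to 0.10 and 0 called, against 0.187% of all genes, and under TMM scaling Foxa3 turned to 0.01. DESeq2 called 7 of the 8 sums lower, and a replicate block 3. By single peaks 0 of 99 were called, against 0.0338% of all 56278, with 58 of the 99 at an unadjusted p under 0.05, against 34.3% of all, and 28 called lower with DESeq2. Without WT replicate 3, 71 of the 99 peaks and all 8 sums were called lower, against 59.5% of all peaks. The share of all genes is not given beside the 8 sums, nor any share beside the DESeq2 and replicate block counts. Those counts therefore do not set the 8 genes apart. The share of tags in peaks was 3.07% to 8.23% in WT, lowest in replicate 3, and 2.45% to 3.15% in LKO, and its part in these values was not tested.

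In Pparα KO liver 0 of 46 GPS2 peaks were called, against 0.273% of all 27842 peaks (edgeR, 10 of the 46 at an unadjusted p under 0.05, against 23.0% of all, and 0 called with DESeq2). The sums of the 7 genes with a peak differed by -1.07 to -0.32 with 0 called, against 0.439% of all genes (-0.16 to 0.52 with TMM scaling), and the median of single peaks was -0.94 at the 8 genes and -0.93 over all. Onecut2 had the lowest value, with 92.3, 84.5 and 161 tags per 10 M in WT and 64.8, 60.5 and 35.3 in KO (edgeR adjusted p = 0.16). Onecut1 had the smallest difference, with 30.5, 28.6 and 25.4 in WT and 24.8, 24.2 and 18.8 in KO. The share of tags in peaks was 2.42% to 4.39% in WT and 1.07% to 2.06% in KO.

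PPARα ChIP-seq in Pparα KO liver tested which tags near these genes depend on the receptor. Of 87 peaks 27 were called lower and 0 higher, against 27.6% lower and 0.0174% higher of all 40241 peaks, so the share of the 8 genes was near the background. The median log2 fold change was -1.68 both at the 8 genes and over all peaks. Prox1 and Cebpa had 7 called peaks each, Foxa1 5, Foxa2 4, Onecut2 3, Cebpb 1, and Onecut1 and Foxa3 0.

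The Cebpb upstream peak, chr2:167513244-167513462, had the smallest p of the 27. It held 43.2 and 37.5 tags per 10 M in WT and 4.12 and 0.73 in KO, a change of -3.98 ± 0.41 (SE, n = 2 and 2, edgeR adjusted p = 1.1e-05). A peak at -14390 bp from the Onecut2 start held 38.2 and 29.8 in WT and 3.43 and 2.20 in KO (-3.55). The Prox1 peak chr1:191931097-191931276, 62208 bp from the start and holding a DR1 match, went from 24.1 and 26.0 to 2.06 and 2.20 (-3.50). In each of these both KO libraries were far below both WT libraries. The Foxa2 peak chr2:147768444-147768638 went from 28.3 and 26.8 to 3.43 and 2.93 (-3.08), the neighbouring Prox1 peak chr1:191930679-191930872 went from 28.3 and 27.5 to 3.43 and 4.40 (-2.81), and the Cebpa peak chr7:35875669-35875889 from 24.1 and 19.1 to 2.75 and 3.66 (-2.73). Start-site peaks of Cebpa, Foxa2 and Onecut1 held under 10 tags per 10 M in every library and were not called.

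Summed over peaks, 7 of 8 genes were lower in Pparα KO liver, against 56.8% of all genes with peaks. Prox1 fell from 166 and 183 tags per 10 M to 42.6 and 37.4 (-2.12 ± 0.20, SE, edgeR adjusted p = 1.2e-09). Onecut2 fell from 89.2 and 97.9 to 19.9 and 18.3, Cebpa from 115 and 100.2 to 21.3 and 27.9, and Foxa2 from 141 and 178 to 41.2 and 57.9. Foxa3 did not pass, with 2.83 and 12.2 in WT and 4.12 and 2.20 in KO (edgeR adjusted p = 0.14), but was called without WT replicate 1 (-1.91, edgeR adjusted p = 0.0095), and Onecut1 lost its call with DESeq2 (adjusted p = 0.055). The share of tags in peaks was 2.14% to 2.44% in WT and 0.581% to 0.652% in KO, and the median over all genes with peaks was -1.71. With TMM scaling, which sets that median near 0, Cebpb was still called (-2.31, edgeR adjusted p = 0.00035), while the other 6 calls were lost and Foxa2 (0.027) and Onecut1 (0.23) turned. The 27 single-peak calls fell to 5 with TMM scaling, against 3.6% of all peaks, and to 0 without either WT library or with a replicate block, where 0 peaks of the whole table were called.

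In Gps2 LKO liver PPARα tags were higher at 5 of the 8 genes, near the background of 58.1% of all genes with peaks called higher. The median log2 fold change was 0.42 at the 8 genes and 0.56 over all genes. Scaled to their tags in peaks, the 3 WT libraries differed by no more than sampling noise. They were therefore summed and counted as 1 sample against 3 LKO samples. The lone WT sample is assumed to vary like the LKO samples. That check leaves out the WT shares of tags in peaks, 19.2%, 21.9% and 19.8%, which enter the tags per 10 M given here. Prox1 held 868, 1030 and 954 tags per 10 M in WT and 1278, 1426 and 1308 in LKO (0.48 ± 0.14, SE, edgeR adjusted p = 0.0028). Cebpa held 958, 1078 and 1001 in WT and 1565, 1386 and 1262 in LKO, a change of 0.46. Every LKO library was above every WT library at both genes.

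Foxa2 (0.45), Foxa1 (0.44) and Onecut2 (0.40) were also called higher, with Foxa1 at 421, 443 and 413 in WT and 565, 610 and 568 in LKO. Onecut1 did not pass, at 272, 290 and 284 in WT and 363, 345 and 305 in LKO (0.25 ± 0.16, SE, edgeR adjusted p = 0.16), although its groups were apart. With the 3 WT libraries taken as 3 samples it was called (0.25, edgeR adjusted p = 0.046). Foxa3 (0.08) and Cebpb (0.04) had overlapping groups. The Cebpb upstream peak, centred at -1035 bp in this table, had more PPARα tags than the peaks at the other start sites, at 244, 242 and 238 in WT and 288, 262 and 198 in LKO.

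The share of tags in peaks was 19.2% to 21.9% in WT and 28.9% to 32.1% in LKO. With TMM scaling 0 of the 8 were called higher, all 8 sums turned below 0, to between -0.53 and -0.079, and Cebpb was called lower (-0.53, edgeR adjusted p = 0.013). All 5 calls were lost without LKO replicate 2 (adjusted p 0.088 to 0.14) and when only peaks within 10000 bp of a start were summed (0.062 to 0.30).

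**Figure D4:**
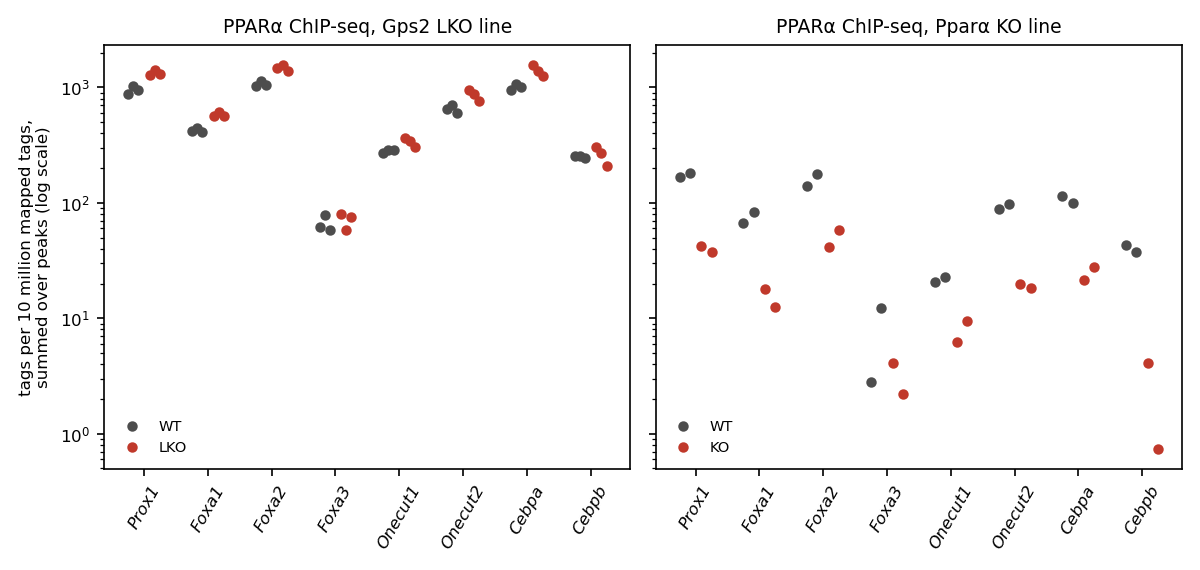
PPARα tags per 10 M mapped tags (log scale), summed over the peaks of each factor, 1 point a library, in the Gps2 line (3 WT and 3 LKO) and the Pparα line (2 WT and 2 KO). The Pparα KO points lie below the WT points at every gene but Foxa3. The Gps2 LKO points overlap the WT points at Foxa3 and Cebpb and lie above them elsewhere. The share of all genes with peaks whose points lie apart in this way was not computed. The separation therefore does not set these genes apart from other genes.

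By single peaks 20 of 147 were called higher and 0 lower, against 21.5% and 0.147% of all 102519 PPARα peaks. Prox1 had 6 of them, Foxa1 5, Foxa2 4, Onecut2 3 and Cebpa 2. The Foxa1 peak chr12:58526009-58526238 held 8.86, 14.2 and 9.02 tags per 10 M in WT and 21.8, 41.7 and 35.2 in LKO (1.60 ± 0.35, SE, edgeR adjusted p = 0.00032). It lies inside a histone peak of the same line, chr12:58524677-58527502, that was not called for H3K27ac. Next to that one is the H3K27ac peak of Foxa1 that was higher in the same line. A second Foxa1 peak, chr12:58529292-58529534, lies inside that H3K27ac peak and held 20.2, 22.8 and 13.5 in WT and 35.6, 37.9 and 38.7 in LKO (0.98, edgeR adjusted p = 0.015). The Foxa2 peak chr2:147757518-147757712 held 2.53, 5.70 and 7.89 in WT and 12.6, 25.6 and 19.9 in LKO (1.83), and the Prox1 peak chr1:191883002-191883262 held 16.5, 38.0 and 21.4 against 49.4, 65.4 and 61.6 (1.17). The Foxa2 peak chr2:147725044-147725242, with its DR1 match, held 24.0, 25.6 and 24.8 in WT and 49.4, 40.7 and 48.7 in LKO (0.89, edgeR adjusted p = 0.016). It lies inside one of the Foxa2 H3K27ac peaks that was higher in Ncor LKO liver. With TMM scaling 0 of the 147 peaks were called higher and 2 lower, against 0.973% of all peaks. Called were 0 with DESeq2 and 53 in all with the WT libraries as 3 samples. No share of all peaks is given beside the DESeq2 count or the 53, so they do not set these genes apart.

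**Figure D5:**
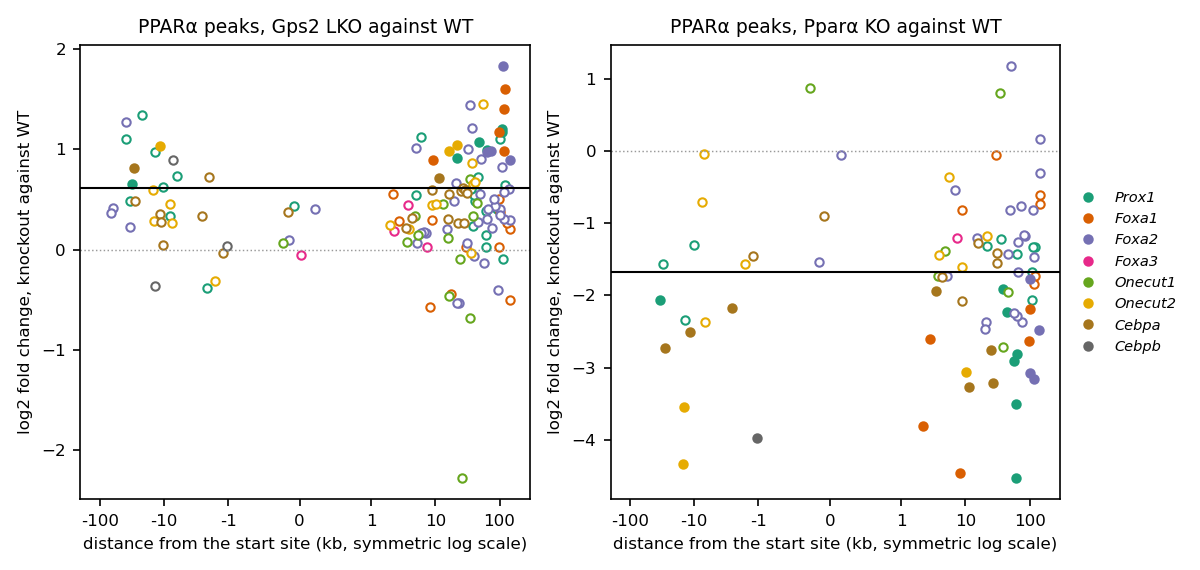
Log2 fold change of single PPARα peaks of the 8 genes against distance from the start site in kb (symmetric log scale), Gps2 LKO against WT on the left and Pparα KO against WT on the right. Filled points passed an adjusted p of 0.05 and the black line is the median of all peaks, 0.62 on the left and -1.68 on the right. The called peak nearest to a start lies at -1062 bp, at Cebpb, and the farthest at 146057 bp, at Foxa2.

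In Ncor LKO liver no PPARα sum of the 8 genes passed the test. The sums differed by -0.22 to 0.19 and 0 were called, against 0.104% of all genes with peaks. WT replicate 3 was lowest at every gene, for example 506 tags per 10 M at Prox1 against 1101 and 1069 in the other WT and 885, 901 and 1272 in LKO. The share of tags in peaks was 8.96% in that library, 18.6% and 19.3% in the other WT libraries and 14.7% to 21.1% in LKO. Without it all 8 sums were below 0, from -0.46 at Foxa3 to -0.091 at Prox1, and 0 were called (edgeR adjusted p 0.81 to 0.95), while 0 of the 134 peaks were called higher and 3 lower. No share of all peaks is given for the fit without that library. With all libraries, 0 of the 134 peaks were called higher and 1 lower, against 0.151% and 0.0453% of all 86168. That Foxa2 peak, chr2:147814395-147814572, held 24.7, 19.8 and 3.33 in WT and 1.14, 4.80 and 1.22 in LKO (-2.66, edgeR adjusted p = 0.0097). Its groups overlapped, and the call was lost with DESeq2, with a replicate block, and without WT replicate 1 or 2 or LKO replicate 1 or 3.

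Most of the 27 PPARα peaks that were lower in Pparα KO liver overlapped an NCOR peak, and so did most of the other 60. Of the 27, 26 (96.3%) overlapped an NCOR peak of the Pparα table. These NCOR peaks were 15.3% of the 176 of these genes. A GPS2 peak of the same line was overlapped by 15 (55.6%) of the 27. Of the other 60, 54 (90.0%) overlapped an NCOR peak and 25 (41.7%) a GPS2 peak of that line. NCOR at the overlapped peaks of the 27 changed by a median of -0.07 in Pparα KO, with 20 of 27 below 0. At those of the 60 the median was -0.19, with 45 of 55 below 0, and 0 were called in either set. GPS2 changed by a median of -1.01 at the overlapped peaks of the 27, with 15 of 15 below 0. At those of the 60 the GPS2 median was -0.77, with 21 of 24 below 0, and again 0 were called. In the Gps2 line, 22 of the 27 (81.5%) overlapped a GPS2 peak, against 37 of the other 60 (61.7%). PPARα tags in Gps2 LKO liver changed by a median of 0.39 at the overlapped peaks of the 27 and 0.40 at those of the 60.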

How the data were processed

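Whole-liver RNA-seq and ChIP-seq tables were used as deposited. Per the labels and the methods of the study, the authors aligned ChIP-seq reads to mm9 with Bowtie2 and made the raw tag counts per peak with HOMER, which also named the nearest gene, and some samples pooled several ChIPs. The RNA-seq table holds raw read counts per gene, as the authors deposited them, and its counting program was not settled from the sources used here. It also holds the authors' own fold changes and p-values, which were not used. The peak lists of the histone marks carry a constant score, as deposited, and served only to pick peaks. The crosslinker of the histone ChIP-seq differs between the labels and the methods.

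The 8 genes and the companion lists were chosen with earlier results of these data known. Counts were tested with edgeR 4.0.16 (quasi-likelihood test, R 4.3.3), with TMM and a low-count filter for RNA-seq and with total mapped tags as library size for ChIP-seq, and p-values were Benjamini-Hochberg adjusted over all features at a threshold of 0.05. DESeq2 1.42.0 was an alternative. A standard error is the log2 fold change over the square root of F. Tags were summed per gene over its tested peaks. Histone peaks of the Gps2 line were tested where they overlapped, by at least 1 bp, peaks in at least 2 of the 4 lists of that mark. Scaled to their tags in peaks, the 3 WT PPARα libraries of the Gps2 line differed by less than sampling noise (mean chi-square per degree of freedom 0.924). They were counted as 1 sample. That check does not cover differences in the share of tags in peaks. Intervals for 1 library a group are exact at 95% and cover counting error only. For each table, values were computed for those of the 8 genes that had peaks. They include the start-site peak, the one with the most tags of those that reach to within 1000 bp. Only some of the start-site peaks are printed. Called peaks were named by smallest p, at most 6 a table, and peaks named for another reason were chosen after their values were seen. The 2 genes most like each were picked by Pearson r. Same-numbered replicates were not paired. The fits were tested on simulated data. Other scalings, filters, tools, replicate blocks and left-out libraries were tried.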

Additional observations from a re-analysis of the deposited data

Results flagged for a closer look

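In 16 groups of 4 RNA-seq libraries, 2 had a library apart from the rest by Dixon's ratio, the gap to the nearest library over the whole range, above its 95% critical value. Chance flags about 1 in 20 groups. For Foxa3 in WT the highest library had a ratio of 0.833, at 80.1 CPM against 75.9 to 76.6 in the other 3. For Onecut2 in LKO the highest library was replicate 2, with a ratio of 0.831, at 124 CPM against 88.1 to 94.1.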

How the results depend on the processing

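Values in this section are member counts of called peaks unless said otherwise. They are printed here without the share of all peaks called under the same setting. They show how the member counts move with the processing and do not set these genes apart from other genes. With TMM scaling H3K27ac in Gps2 LKO gave 0, NCOR in Gps2 LKO 1, NCOR in Pparα KO 4 (all higher), PPARα in Gps2 LKO 2 (lower), PPARα in Ncor LKO 3 and PPARα in Pparα KO 5. DESeq2 gave 0 for H3K27ac in Gps2 LKO, 4 for H3K27ac in Ncor LKO, 28 for GPS2 in Ncor LKO, 0 for PPARα in Gps2 LKO and 0 for PPARα in Ncor LKO. With at least 20 tags a peak on average, GPS2 in Ncor LKO gave 18, PPARα in Ncor LKO 0 and PPARα in Pparα KO 5, from fewer peaks tested. The 3 WT libraries of PPARα in Gps2 LKO taken as 3 samples gave 53. Tags in peaks as library size gave ratios of 0.774 for GPS2 and 0.974 for Pol II.

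Same-numbered replicates shared only a number, with correlations of deviations from 0.03 to 0.14 in RNA-seq and from -0.27 to 0.34 in ChIP-seq. With the replicate block the counts were 1 for H3K4me3, 0 for H3K27ac in Ncor LKO, 37 for GPS2 in Ncor LKO, 50 for PPARα in Gps2 LKO, 0 for PPARα in Ncor LKO and 0 for PPARα in Pparα KO, and RNA-seq gave 2 higher and 3 lower genes.

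Summed tags turned in sign under TMM scaling for PPARα in Gps2 LKO (Cebpa -0.11, Cebpb -0.53, Foxa1 -0.11, Foxa2 -0.11, Foxa3 -0.47, Onecut1 -0.31, Onecut2 -0.16, Prox1 -0.079), for PPARα in Pparα KO (Foxa2 0.027, Onecut1 0.23), for NCOR in Pparα KO (Prox1 0.23) and for GPS2 in Ncor LKO (Foxa3 0.01), among other uncalled sums. Onecut1 RNA ranged from -0.37 to 0.27 when 1 library was left out, and was -0.58 without LKO replicate 2 and with the length trend removed, a combination chosen after seeing the data. Leaving out 1 library gave 0 to 15 for H3K27ac in Gps2 LKO, 0 to 1 for H3K4me3, 0 to 2 for H3K27ac in Ncor LKO, 0 to 1 for NCOR in Pparα KO, 0 to 71 for GPS2 in Ncor LKO, 10 to 30 for PPARα in Gps2 LKO, 0 to 3 for PPARα in Ncor LKO and 0 to 24 for PPARα in Pparα KO. The cause of these shifts was not tested. Over all alternative fits, 145 RNA values, 896 summed values and 95 values of named peaks stayed called or stayed uncalled, some uncalled ones with the other sign. The call was lost for 15 RNA values, 16 summed values and 55 values of named peaks. A call was gained for 22 RNA values and 27 summed values. The sign turned for 2 RNA values and 9 summed values that were called in the main or the alternative fit. With 2 or 3 libraries a group, permutations of single values reach no lower p than 0.333 or 0.1.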
